A study of Mus musculus with 12 samples.

Results

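The RNA levels of 46 interferon-stimulated genes were followed in 12 4T1 tumours. The genes were chosen by name as a module of the interferon response, and the value of a gene was the sum over its annotated transcripts. All 46 were found among the 35944 genes measured. 4T1 is a mammary carcinoma line of BALB/c mice. Cells (100000 per mouse) were placed under the skin, on the right side, in females of that strain aged 6 to 8 weeks. From day 5, extracellular vesicles (EVs) of a mouse endothelial cell line were injected around the tumour, 3 µg at a time and every 2 days, and tumour RNA was taken on day 21. By design, the 4 groups of 3 tumours differed in the synthetic microRNA electroporated into the EVs: cel-miR-67, a worm microRNA (the ctrl group), or else miR-142-5p, or miR-183-5p, or lastly miR-222-3p. Every tumour therefore received loaded EVs, and there was no group without EVs. Polyadenylated RNA was sequenced from whole tumours, 1 library each, with 20285968 to 27021401 estimated reads.

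Interferons are secreted proteins that warn cells of infection and shape the immune response to tumours. Type I interferons act through the Ifnar1 and Ifnar2 receptor, and a complex that includes Stat2 and Irf9 then binds the interferon-stimulated response element (ISRE). Interferon-γ acts through Ifngr1 and Ifngr2 and on genes with a gamma-activated site (GAS). Many genes answer to both, and in tumours they can be expressed by carcinoma cells, macrophages and other infiltrating cells alike. In RNA from whole tumours, fewer cells of a type and less RNA per cell cannot be told apart.

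The start regions of the genes were searched for the letters of the elements named above. RefSeq promoter windows (GRCm38.p6, 250 bases before to 50 after the start of transcription) were at hand for 35 of the 46 genes. The search covered both strands, for an ISRE core (GAAA, any 2 bases, GAAA) and a GAS core, TTCNNNGAA. The letters of the ISRE were found in 20 of the 35 genes (57.1%) and in 3.99% of the 27025 genes with a window. Those of the GAS were found in 12 of the 35 (34.3%) and in 9.55% of all. In 8 genes both were found, and in 11 neither. A match describes the letters only and is no evidence that a factor binds. Among the interferon-inducible GTPases, 8 of 9 windows held the ISRE letters and 5 held the GAS letters. Of the IFIT genes, 3 of 4 held the ISRE and 1 the GAS. 4 windows are printed 5′ to 3′ on the strand of the gene, with matches in capitals, because they show the arrangements that recurred.
Isg15, chr4:156200769-156201068, minus strand, with 3 ISRE matches that overlap one another: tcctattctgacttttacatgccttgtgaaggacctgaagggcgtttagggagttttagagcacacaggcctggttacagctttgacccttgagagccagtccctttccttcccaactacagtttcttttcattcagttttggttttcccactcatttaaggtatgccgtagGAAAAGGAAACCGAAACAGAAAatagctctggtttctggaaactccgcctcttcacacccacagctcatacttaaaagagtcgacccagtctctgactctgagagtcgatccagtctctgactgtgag
Ifit1, chr19:34640639-34640938, plus strand, with 2 separate ISRE matches, read on the other strand: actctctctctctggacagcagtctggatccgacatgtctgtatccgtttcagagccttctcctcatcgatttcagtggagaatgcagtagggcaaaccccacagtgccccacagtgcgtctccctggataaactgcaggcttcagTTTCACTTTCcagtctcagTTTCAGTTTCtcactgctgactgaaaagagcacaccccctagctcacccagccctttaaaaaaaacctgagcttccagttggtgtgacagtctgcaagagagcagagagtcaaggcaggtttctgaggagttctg
Igtp, chr11:58199306-58199605, plus strand, with a GAS match followed by an ISRE match: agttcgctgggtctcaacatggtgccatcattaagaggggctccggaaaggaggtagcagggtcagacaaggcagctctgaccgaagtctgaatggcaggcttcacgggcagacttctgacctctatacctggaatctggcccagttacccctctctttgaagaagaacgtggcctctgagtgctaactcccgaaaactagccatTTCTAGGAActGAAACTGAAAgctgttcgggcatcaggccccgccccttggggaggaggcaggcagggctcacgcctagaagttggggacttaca
Irf1, chr11:53769764-53770063, plus strand, the first of its 2 windows, with a GAS match and no ISRE match: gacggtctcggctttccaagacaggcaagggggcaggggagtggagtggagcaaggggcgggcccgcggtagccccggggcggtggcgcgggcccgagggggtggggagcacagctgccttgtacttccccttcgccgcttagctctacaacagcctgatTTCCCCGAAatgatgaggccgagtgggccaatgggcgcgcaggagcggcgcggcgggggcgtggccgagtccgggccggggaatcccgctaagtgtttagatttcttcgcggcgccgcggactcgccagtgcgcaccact
In Isg15 the matches began 78, 72 and 66 bases before the first transcribed base. Those of Ifit1 began 104 and 85 bases before it. The GAS of Igtp began 45 bases and its ISRE 34 bases before the start, and Irgm2 and Tgtp2 had the same order of the pair. In Bst2 a GAS match overlapped the first of 2 ISRE matches.

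**Figure D1:**
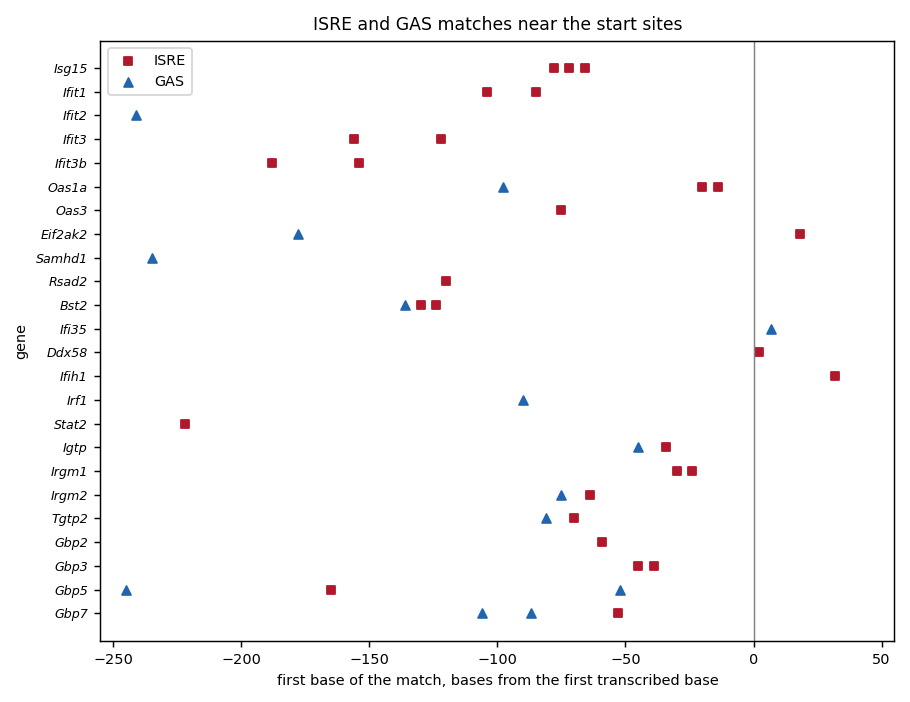
Positions of the ISRE letters (squares) and the GAS letters (triangles) in the promoter windows of the 24 genes with a match. The horizontal axis gives the first base of each match, in bases from the first transcribed base at 0, and each row is a gene. All matches of the GTPases except 2 of Gbp5 lie in the last 106 bases before the start.

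The loaded microRNAs were also set beside the genes. Their mature mouse sequences in RefSeq are given with the seed, bases 2 to 8, in capitals, because the seed decides which messages a microRNA can pair with. The 3 seeds differed from one another.
miR-142-5p: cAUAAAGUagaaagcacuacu
miR-183-5p: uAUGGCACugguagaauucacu
miR-222-3p: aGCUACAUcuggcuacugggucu
A site complementary to the seed was searched in the 3′ UTR of the transcript with the most reads, for 45 of the 46 genes and for 13709 genes in all. The miR-142-5p site, ACTTTAT, was found in 4 of the 45 (8.89%) and in 15.2% of all genes. The miR-183-5p site, GTGCCAT, was in 5 (11.1%) and in 9.94% of all. The miR-222-3p site, ATGTAGC, was in 3 (6.67%) and in 10.01% of all. Herc6, an E3 ligase that attaches Isg15 to proteins, was the single gene with sites for more than 1 of the microRNAs. Its sites, and that of Stat2, are shown in capitals with 10 bases on either side.
Herc6, miR-142-5p site: gacttatcagACTTTATatgtgagatg
Herc6, miR-222-3p site: actgagcaaaATGTAGCacctagtcat
Stat2, miR-183-5p site: ggggacagcaGTGCCATgcccagcctc

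Before any comparison, 3 properties of the libraries bear on the values. MiR-142-5p tumour 3 held 511 TPM of B cell markers in sum, against at most 11.1 TPM in the other 11 tumours, and the highest T cell sum (199.8 TPM). MiR-183-5p tumour 3 held 489.6 TPM of skeletal muscle markers against at most 112 TPM elsewhere. The mitochondrial pseudogene Gm28661 took 7.13% to 41.8% of the reads shared between it and mt-Co2 in 8 libraries, but at most 0.324% in the 3 miR-222-3p libraries and in miR-183-5p tumour 3. This difference between sets of libraries and the miR-222-3p treatment cannot be told apart. The carcinoma markers Epcam, Krt8 and Krt18 were present in every tumour, Epcam at 69.7 to 125 TPM. The labels do not say that the numbers of tumours link the groups.

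No interferon-stimulated gene passed the test in any comparison. DESeq2 was fitted to the 15459 genes with enough reads, all 46 among them, with Benjamini-Hochberg adjustment and a threshold of 0.05 on the adjusted p. Against ctrl, 0 of 46 were called in the miR-142-5p group (0.00649% of all genes), 0 of 46 in the miR-183-5p group (0.0% of all genes) and 0 of 46 in the miR-222-3p group (0.026% of all genes). Between microRNA groups, 0 of 46 were called in miR-183-5p compared with miR-142-5p (0.0519% of all), 0 of 46 in miR-183-5p compared with miR-222-3p (0.0324%), and 0 of 46 in miR-142-5p compared with miR-222-3p (0.0389%). The test of any difference among the 4 groups called 0 of 46 (0.0584% of all), and 0 of 46 had an unadjusted p below 0.05 (4.73% of all). edgeR's quasi-likelihood test also called 0 in each of the 6 pairs. At an unadjusted p below 0.05, DESeq2 counted 1, 1, 0, 2, 1 and 0 genes in the order of the pairs above, and edgeR 0, 1, 0, 1, 1 and 0. The shares of all genes by DESeq2 were 3.56%, 3.22%, 2.29%, 7.95%, 3.24% and 3.59%, and by edgeR 3.35%, 2.87%, 2.04%, 7.3%, 2.88% and 3.38%. These counts depended on the fit. With only the compared groups fitted, 6 genes were below 0.05 for miR-142-5p against ctrl (2.28% of all genes) and 8 for miR-183-5p compared with miR-142-5p (8.62% of all), the lowest adjusted p being 0.158 in the latter pair. Without ctrl tumour 2, the test of any difference counted 6 genes (5.56% of all) and miR-183-5p compared with miR-142-5p also 6 (8.41% of all), with 0 called in each. A p above the threshold does not show that the genes were alike between groups.

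Many of the genes had their highest or lowest value in the same few tumours, and 1 control tumour was most often the highest. Ctrl tumour 2 had the highest normalised count of all 12 tumours in 30 of the 46 genes, whereas 10.7% of all genes were highest there. It was above the 12-tumour mean in 46 of 46. MiR-183-5p tumour 3 was highest in a further 12 genes (10.2% of all genes). The lowest values lay in ctrl tumour 3 for 18 genes (8.32% of all) and in miR-222-3p tumour 3 for another 18 (9.88% of all). The control group thus held both the highest tumour and a tumour with many of the lowest values. The median deviation of the 46 genes from their 12-tumour mean was 0.54 (log2) in ctrl tumour 2 and 0.39 in miR-183-5p tumour 3. It was -0.27 in ctrl tumour 3, -0.27 in miR-222-3p tumour 3 and -0.23 in miR-183-5p tumour 1. The scaling of the counts sets the median over all genes near 0 in each tumour.

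**Figure D2:**
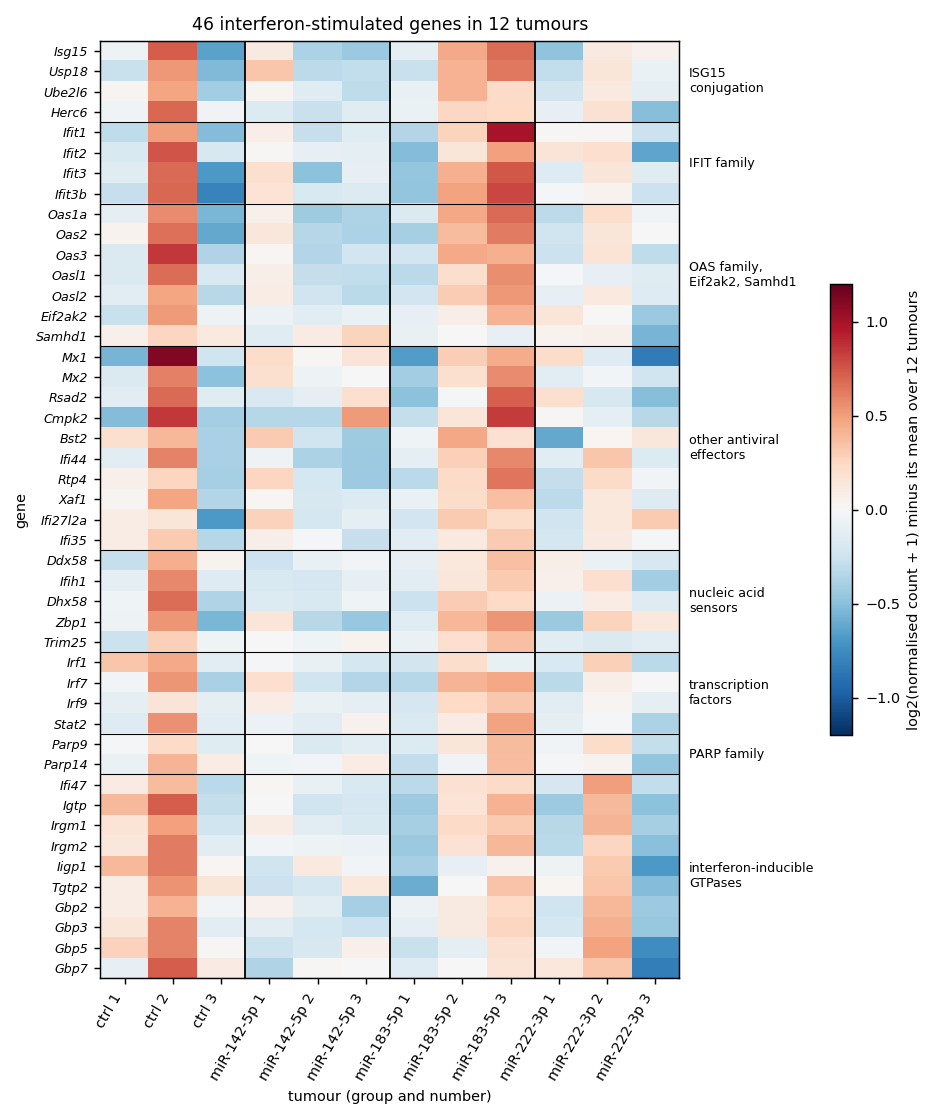
Deviation of each of the 46 genes (rows, grouped by role) from its own mean over the 12 tumours, as log2(normalised count + 1), for each tumour (columns, 3 per group between the black lines). Red is above and blue below the mean. Ctrl tumour 2 is red in all rows, and the GTPases are darkest blue in miR-222-3p tumour 3.

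The spread between tumours was wide within groups. The ratio of the highest to the lowest tumour had a median of 2.09 over the 46 genes (1.44 to 3.86) and of 1.68 over all genes. It was above 2 for 27 of the 46 genes and for 35.9% of all genes. The groups accounted for a median of 19.2% of the variance of a gene across tumours, beside 21.1% over all genes. Mx1, of the dynamin-like GTPase family, had the widest ratio. Irf9 had the narrowest.

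The Isg15 system comprises Isg15 and enzymes that attach or remove it. Isg15, a ubiquitin-like protein that is joined to other proteins, was at 255, 489 and 196 TPM (transcript level per length, scaled to the same sum in each library) in ctrl tumours 1, 2 and 3. It was at 289, 218 and 225 TPM with miR-142-5p, at 266, 382 and 453 with miR-183-5p, and at 219, 310.0 and 284 with miR-222-3p. Its groups overlapped in every pair, and ctrl tumour 2 was the highest of the 12. Usp18, the protease that removes Isg15 and damps the type I receptor, was at 79.8 ± 33.5 TPM in ctrl, 76.0 ± 16.2 with miR-142-5p, 97.9 ± 28.5 with miR-183-5p and 77.0 ± 10.2 with miR-222-3p (SD, n = 3). Herc6 had normalised counts of 2436, 4083 and 2466 in ctrl and of 2258, 2109.8 and 2294 with miR-142-5p. These groups did not overlap, the miR-142-5p tumours being the lower. Its difference was -0.43 ± 0.22 (log2 fold change ± SE, DESeq2, unadjusted p = 0.0494, adjusted p = 1). With miR-183-5p Herc6 was at 2395, 3005 and 2984, and with miR-222-3p at 2362, 2873 and 1781, and both overlapped ctrl.

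The IFIT family, proteins that bind foreign RNA and stop its translation, had the widest spread between tumours. The median ratio of highest to lowest tumour was 2.78 in its 4 genes, the largest of the 8 roles. Ifit1 was at 16.8, 32.6 and 16.6 TPM in ctrl, at 22.1, 18.3 and 21.7 with miR-142-5p, at 17.7, 26.2 and 44.1 with miR-183-5p, and at 24.2, 22.6 and 17.9 with miR-222-3p. The 3 miR-183-5p tumours covered nearly the whole range of the series. The Ifit1 difference of miR-183-5p from ctrl was 0.44 ± 0.31, the largest above 0 among the 46 in that pair, with an adjusted p of 0.9998. Ifit3b followed with 0.36 ± 0.35. Ifit3 was at 61.2 ± 30.6 TPM in ctrl, 53.9 ± 11.4 with miR-142-5p, 71.9 ± 27.2 with miR-183-5p and 57.2 ± 7.17 with miR-222-3p (SD, n = 3). Ifit3 and Ifit3b share 97.8% of bases over 1700, so the split of reads between them is uncertain.

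The OAS family makes the second messenger that activates RNase L on sensing double-stranded RNA. Oas2 was at 40.2, 68.5 and 29.5 TPM in ctrl, at 43.3, 33.0 and 34.7 with miR-142-5p, at 32.2, 53.2 and 64.6 with miR-183-5p, and at 38.3, 46.7 and 40.2 with miR-222-3p. Again ctrl tumour 2 and miR-183-5p tumour 3 were the highest. Oas1a had normalised counts of 2625, 4088 and 4754 with miR-183-5p and of 3090, 2206 and 2295 with miR-142-5p. The lowest miR-183-5p tumour lay inside the miR-142-5p range. Its difference was 0.59 ± 0.28 (DESeq2, unadjusted p = 0.0330, adjusted p = 0.561), the largest of the 46 in that pair. Oas1a shares 97.6% of bases with Oas1g over 1861, and the split of reads between them is uncertain. Eif2ak2, the kinase PKR that halts translation, was at 33.1 ± 10.8 TPM in ctrl, 28.5 ± 2.03 with miR-142-5p, 33.4 ± 6.01 with miR-183-5p and 29.4 ± 7.53 with miR-222-3p (SD, n = 3).

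Samhd1, which breaks down deoxynucleotides, had another order of tumours. Its normalised counts were 7389, 8438 and 7638 in ctrl, 6630, 7025 and 6591 with miR-183-5p and 7283, 7367 and 4785 with miR-222-3p. All ctrl values were above those of both groups. With miR-142-5p it was at 6394, 7583 and 8477 and overlapped ctrl. From ctrl it differed by -0.21 ± 0.17 with miR-183-5p (adjusted p = 0.9998) and by -0.27 ± 0.17 with miR-222-3p (adjusted p = 0.99996). Samhd1 was the single gene of the 46 whose groups did not overlap in either pair. All genes with the treated tumours wholly lower made up 4.75% with miR-183-5p and 2.56% with miR-222-3p. In miR-142-5p against ctrl, Herc6 and Gbp3 were the 2 genes wholly lower (2.94% of all genes), and none was wholly higher in any of these 3 pairs (3.12% of all genes with miR-142-5p, 4.42% with miR-183-5p and 2.94% with miR-222-3p).

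Among the other antiviral effectors, Bst2, or tetherin, which holds budding viruses at the cell surface, had the highest level of the 46. It was at 621, 799.9 and 479.6 TPM in ctrl, at 685, 494 and 469 with miR-142-5p, at 575, 790.1 and 662 with miR-183-5p, and at 412, 601 and 617 with miR-222-3p. Rsad2, or viperin, which makes a chain-terminating nucleotide, had the lowest mean level (20.4 TPM). It was at 16.6, 32.1 and 18.9 TPM in ctrl, 16.1, 17.8 and 24.1 with miR-142-5p, 14.0, 18.8 and 31.8 with miR-183-5p, and 23.9, 17.1 and 13.1 with miR-222-3p. Both ends of the scale showed the same overlap of groups. Mx1 had normalised counts of 513, 1627 and 640.4 in ctrl, so that ctrl tumour 2 stood well above the other two. With miR-222-3p it was at 879, 677 and 421, a difference of -0.49 ± 0.39 that had an adjusted p of 0.99996. Without ctrl tumour 2 this difference was 0.19. Mx1 and Mx2 share 94.8% of bases over 921, and the annotation lists Mx2 as a polymorphic pseudogene.

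Ifi44, a GTP-binding protein of unclear role, had normalised counts of 3861, 5081 and 6187 with miR-183-5p and of 3988, 3191 and 3073 with miR-142-5p. The difference was 0.56 ± 0.25 (DESeq2, unadjusted p = 0.0262, adjusted p = 0.527), and the groups overlapped. Ifi27l2a, a small protein of mitochondria and nuclear envelope, was the single gene above ctrl with miR-142-5p (0.11 ± 0.24) and the single one with miR-222-3p (0.19 ± 0.24). Its counts were 1182, 1231 and 692 in ctrl, 1346, 964 and 1033 with miR-142-5p and 943, 1213 and 1388 with miR-222-3p. Ctrl tumour 3 was lowest, and without it both differences were below 0 (-0.11 and -0.03).

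The 5 sensors of foreign nucleic acid had a median ratio of 1.99 between the highest and the lowest tumour. Ddx58, which encodes RIG-I, was at 52.6 ± 15.1 TPM in ctrl, 44.7 ± 6.37 with miR-142-5p, 52.9 ± 7.94 with miR-183-5p and 47.1 ± 7.14 with miR-222-3p (SD, n = 3). Zbp1, a sensor of Z-form nucleic acid, was at 187, 312 and 154 TPM in ctrl, 218, 166 and 165 with miR-142-5p, 192, 269.8 and 300.1 with miR-183-5p, and 166, 254 and 219 with miR-222-3p. Trim25 is a ubiquitin ligase that acts on RIG-I signalling. Its normalised counts were 2929, 4252 and 3380 in ctrl. They were 3310.5, 4012 and 4503 with miR-183-5p, 3179.7, 3105 and 3192 with miR-222-3p and 3482, 3368 and 3610.2 with miR-142-5p. The miR-222-3p tumours were below both other microRNA groups without overlap, and overlapped ctrl. Between miR-183-5p and miR-222-3p the difference was 0.32 ± 0.15 (DESeq2, unadjusted p = 0.0356, adjusted p = 0.9996). In that pair the first group was wholly higher for 4.59% of all genes and wholly lower for 4.46%. For miR-142-5p compared with miR-222-3p, where Trim25 was again the single gene of the 46, those shares were 2.9% and 3.29%.

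The transcription factors carry the response onward. Irf1, induced by interferon-γ, was at 315, 382 and 265 TPM in ctrl, 249.8, 252 and 250.1 with miR-142-5p, 234, 305 and 253 with miR-183-5p, and 256, 331 and 206 with miR-222-3p. The 3 miR-142-5p values were close to one another and below all ctrl values in TPM, but in normalised counts these groups overlapped. Irf7, the amplifier of type I interferon, was at 146, 240.2 and 132 TPM in ctrl, 173, 136 and 136 with miR-142-5p, 129, 208 and 220 with miR-183-5p, and 138, 172 and 154 with miR-222-3p. Stat2 was at 93.2 ± 29.9 TPM in ctrl, 81.7 ± 10.2 with miR-142-5p, 93.3 ± 21.2 with miR-183-5p and 76.1 ± 12.2 with miR-222-3p (SD, n = 3). Parp14, an ADP-ribosyl transferase, was at 50.8 ± 11.1, 45.3 ± 5.37, 45.9 ± 10.7 and 41.7 ± 9.30 TPM in the same order (SD, n = 3).

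The interferon-inducible GTPases, which attack the vacuoles of intracellular microbes and are classic targets of interferon-γ, followed a different order of tumours. Ctrl tumour 2 was highest in 9 of the 10, and miR-222-3p tumour 2 was among the highest 2 in 6 of the 10 but in 0 of the other 36 genes. MiR-183-5p tumour 3, among the highest 2 in 28 of those 36, was so in 3 of the 10. MiR-222-3p tumour 3 was lowest in 7 of the 10, with a summed level of 963 TPM against 2140.2 TPM in ctrl tumour 2. These counts describe the tumours and were not tested.

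The GTPase genes lie on 3 chromosomes (GRCm38). Gbp2, Gbp3, Gbp5 and Gbp7 are neighbours on chromosome 3, Iigp1 is on chromosome 18, and the other 5 are at a pair of loci on chromosome 11, with Irgm1, Tgtp2 and Ifi47 at one and Igtp and Irgm2 at the other. The annotated spans of Igtp (58199556 to 58207591) and Irgm2 (58199618 to 58222782), introns included, overlap on the plus strand. The BLAST search for long shared stretches between transcripts listed none for this pair.

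Igtp, an immunity-related GTPase, had normalised counts of 7959, 10027 and 4966 in ctrl, 6060.2, 5121 and 5276 with miR-142-5p, 4487, 6783 and 8081 with miR-183-5p, and 4487, 7927 and 4314 with miR-222-3p. From ctrl it differed by -0.48 ± 0.29 with miR-142-5p (adjusted p = 1) and by -0.46 ± 0.29 with miR-222-3p (adjusted p = 0.99996). Iigp1, of the same family, was at 11123, 13139 and 8660.1 in ctrl, 6472, 7939 and 8831 with miR-183-5p, and 8153, 10601 and 5287 with miR-222-3p. The ctrl range began just below the highest miR-183-5p tumour. The Iigp1 difference was -0.50 ± 0.23 for miR-183-5p (DESeq2, unadjusted p = 0.0320, adjusted p = 0.9998), the lowest of the 46 in that pair. For miR-222-3p it was -0.45 ± 0.23 (unadjusted p = 0.0528, adjusted p = 0.99996, DESeq2). With miR-142-5p, Iigp1 was at 7199, 9216 and 8337.

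The guanylate-binding proteins gave like values. Gbp3 was at 5605, 7649 and 4620.3 in ctrl and at 4597, 4360.1 and 4231 with miR-142-5p, groups that did not overlap, with a difference of -0.44 ± 0.23. Gbp5, which promotes inflammasome assembly, was at 2138, 2660.0 and 1777 in ctrl, 1471, 1536 and 1830.0 with miR-142-5p, and 1458, 1634 and 1998 with miR-183-5p. The Gbp5 differences were -0.44 ± 0.26 and -0.37 ± 0.26. Tgtp2 was next in miR-183-5p against ctrl with -0.31 ± 0.25, and it shares 99.8% of bases with Tgtp1 over 2811. Gbp2 was at 299.6 ± 56.3 TPM in ctrl, 237 ± 21.3 with miR-142-5p, 279.6 ± 27.9 with miR-183-5p and 259 ± 83.1 with miR-222-3p (SD, n = 3). Irgm1, a regulator of the other immunity-related GTPases, was at 210.2 ± 53.1, 176 ± 9.01, 194 ± 45.9 and 180.2 ± 59.1 TPM in the same order (SD, n = 3).

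**Figure D3:**
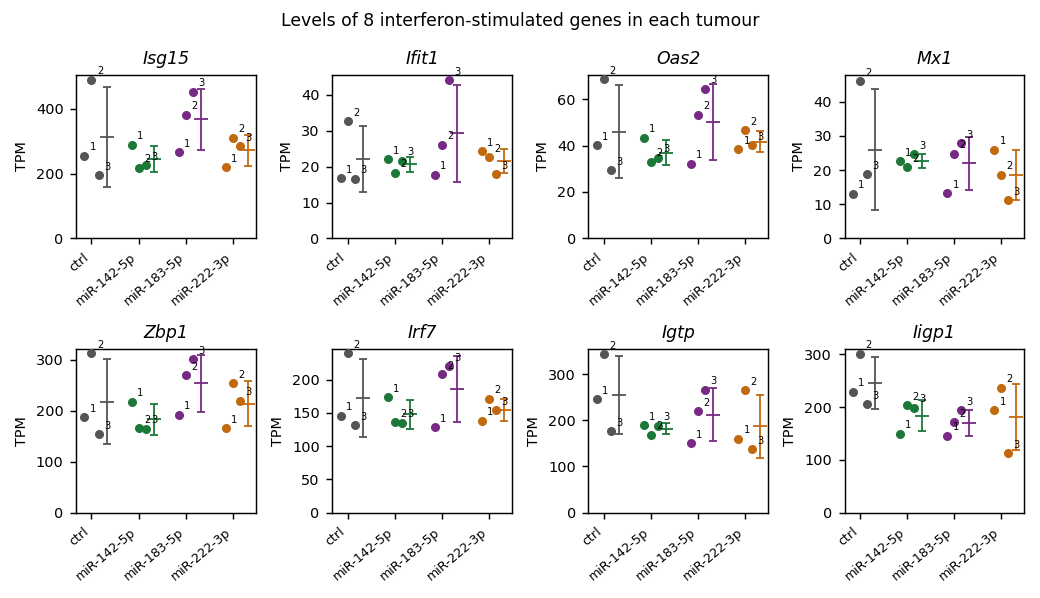
TPM of 8 of the genes in each tumour. Points are tumours, numbered as in the labels, and the bar beside them is the mean with the SD of 3 tumours. The vertical axes start at 0. Ctrl tumour 2 is the highest of 12 in 7 of the 8 panels, Ifit1 being the exception.

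Read over all 46 genes, the differences from ctrl were small and rested on single tumours. With miR-142-5p 45 of 46 genes were below ctrl (51.2% of all genes), with a median of -0.21 on the log2 scale (-0.0050 over all genes). With miR-222-3p 45 of 46 were below (52.0% of all), with a median of -0.20. With miR-183-5p 27 were above and 19 below (47.3% of all genes above), with a median of 0.05. All 10 GTPases were below ctrl in the 3 pairs. For miR-183-5p versus ctrl their median was -0.20, beside 0.31 for the IFIT family and 0.19 for the Isg15 system. The 3 pairs share the ctrl tumours, so they do not support one another. Genes of 1 tumour are not replicates, and n is 3 tumours per group.

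Without ctrl tumour 2 the medians changed sign or grew. For miR-142-5p the median was then 0.05, with 28 of 46 above ctrl. For miR-222-3p it was 0.09, with 30 above. For miR-183-5p it was 0.30, with 40 above and 12 genes at an unadjusted p below 0.05 (6.2% of all genes in that fit), but the lowest adjusted p was 0.516 (DESeq2). Without ctrl tumour 3 the median was -0.39 with miR-142-5p, -0.09 with miR-183-5p and -0.36 with miR-222-3p. The 12 genes then below an unadjusted p of 0.05 for miR-142-5p compare with 4.82% of all genes. Without ctrl tumour 1 the miR-183-5p median was -0.07. No gene was called in any of these fits.

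**Figure D4:**
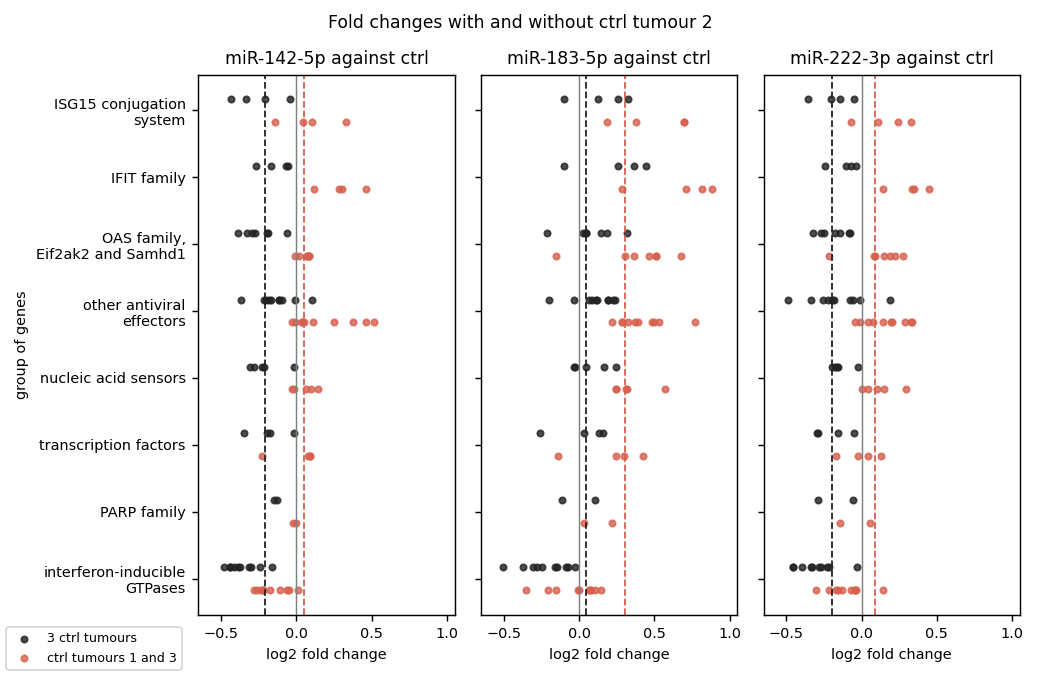
Log2 fold changes (horizontal axis) of the 46 genes against ctrl, by role, with 3 ctrl tumours (black) and with ctrl tumours 1 and 3 (red). Dashed lines are the medians over the 46 genes and the grey line is 0. In the left and right panels the median passes from below 0 to above 0, and in the middle panel it goes from 0.05 to 0.30.

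Between the microRNA groups no gene passed the test. The medians with miR-183-5p moved most when its tumour 1 or its tumour 3 was left out. MiR-183-5p tumour 1 was above the 12-tumour mean in 0 of 46 genes, tumour 2 in 39 and tumour 3 in 44. The mean difference of the group was above 0 for most genes in both pairs with miR-183-5p, which share these 3 tumours. Against miR-142-5p, 43 of 46 fold changes were above 0 (49.5% of all genes), with a median of 0.24. Against miR-222-3p, 43 of 46 were above 0 (49.2% of all), with a median of 0.25. The IFIT family had the largest medians of the 8 roles, 0.42 and 0.40. Herc6 and Gbp3 were higher without overlap in the first pair (5.92% of all genes, beside 6.43% wholly lower), and Trim25 in the second. MiR-142-5p and miR-222-3p differed by a median of -0.06, with 14 genes above 0 (51.0% of all). MiR-183-5p tumour 3 held the muscle markers and had a Gm28661 share of 0.017%, against 18.1% and 17.1% in miR-183-5p tumours 1 and 2. Leaving out miR-183-5p tumour 3 brought the medians to 0.10 and 0.07, and that against ctrl to -0.10. Without miR-183-5p tumour 2 they were 0.24 and 0.20, and that against ctrl was 0.04. Leaving out miR-183-5p tumour 1 brought them to 0.39 and 0.40, with 17 and 10 genes at an unadjusted p below 0.05 (6.85% and 3.07% of all genes), and that against ctrl to 0.20. Without miR-222-3p tumour 2, miR-142-5p against miR-222-3p had a median of 0.10. In that fit miR-183-5p against miR-222-3p had one of 0.36, and miR-222-3p against ctrl one of -0.28. Without miR-222-3p tumour 3, miR-183-5p against miR-222-3p had one of 0.16 and miR-222-3p against ctrl one of -0.09. No gene was called in these fits.

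No gene with a seed site was called. With miR-142-5p, Ifi44 differed from ctrl by -0.37 ± 0.25, Parp9 by -0.13 ± 0.17 and Irf9 by -0.01 ± 0.15, beside Herc6 above. With miR-183-5p, Gbp7 differed by -0.28 ± 0.27 and Irgm2 by -0.16 ± 0.25, whereas Trim25 (0.16 ± 0.15), Oas3 (0.04 ± 0.29) and Stat2 (0.03 ± 0.21) were above 0. Gbp7 shares 100% of bases with Gm43802 over 637, and the split of reads from that stretch is uncertain. With miR-222-3p, Herc6 differed by -0.36 ± 0.22, Rsad2 by -0.33 ± 0.30 and Eif2ak2 by -0.18 ± 0.22. By DESeq2 the adjusted p of each was 1 with miR-142-5p, 0.9998 with miR-183-5p and 0.99996 with miR-222-3p.

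The interferons themselves were barely detected. Of 21 ligand genes, 10 were at 0 in all tumours and 2 had enough reads to test. Ifnb1 was at 0 to 0.558 TPM. Ifng was at 2.24, 3.96 and 1.82 TPM in ctrl, 2.10, 1.91 and 2.57 with miR-142-5p, 2.18, 3.49 and 2.82 with miR-183-5p, and 3.25, 6.20 and 2.04 with miR-222-3p. The highest Ifng level was in miR-222-3p tumour 2 and the next in ctrl tumour 2, and both had 10 of 10 GTPases above the 12-tumour mean. Other tumours went another way. MiR-222-3p tumour 1, at 3.25 TPM of Ifng, had 2 of the 10 above it, and ctrl tumour 1, at 2.24 TPM, had 9. MiR-183-5p tumour 3, at 2.82 TPM, also had 10 of 10, and miR-183-5p tumour 2, at 3.49 TPM, had 6. The part of Ifng in these levels was not tested. Ifnar1 was at 33.0 to 48.4 TPM and Ifngr1 at 46.1 to 71.7 TPM over the 12 tumours.

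In other genes of the pathway, ctrl tumour 2 was again the highest for Cxcl10 and Socs1. Cxcl10, a chemokine that draws T cells, was at 122, 253 and 99.4 TPM in ctrl, and elsewhere between 89.8 and 171 TPM. Socs1, the feedback inhibitor, was at 3.00 to 8.36 TPM. In the lists of 6 receptors, 10 signal transducers and inhibitors, 15 inducers of interferon and 80 other interferon-stimulated genes, 0 were called in either direction in the 6 pairs. The 80 other genes had a median against ctrl of -0.11 with miR-142-5p, -0.02 with miR-183-5p and -0.13 with miR-222-3p.

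Some markers of other cells had an unadjusted p below 0.05 (DESeq2) in comparisons of groups. In 14 lists, no marker had an adjusted p below 0.05 in any pair, and DESeq2 gave none for Cd79a, Cd79b, Pax5, Acta1 and Ckm, in which 1 library was extreme. With miR-183-5p, 4 of 6 neutrophil markers were higher and 4 of 8 macrophage markers lower than with miR-142-5p at an unadjusted p below 0.05. By DESeq2, 7.95% of all genes were below it in that pair. In the same pair 6 of 8 T cell markers were lower (median -1.17) and 3 of 5 adipocyte markers tested were higher (median 1.58). Against ctrl, 6 of 8 T cell markers were higher with miR-142-5p at an unadjusted p below 0.05 (median 1.13), beside 3.56% of all genes by DESeq2. T cell markers summed to 46.2, 73.3 and 199.8 TPM in miR-142-5p tumours 1, 2 and 3, the last being the tumour with the B cell markers. The sums were 28.7 to 59.5 TPM with miR-183-5p, 42.9 to 60.2 in ctrl and 39.4 to 79.6 with miR-222-3p. Summed, neutrophil markers were at 1879 to 3042 TPM with miR-183-5p, 1019 to 1659.8 with miR-142-5p, 1051 to 2009.9 in ctrl and 882 to 2009 with miR-222-3p. Macrophage markers were at 1147 to 1733, 1868 to 2737, 1740.0 to 2200.0 and 1545 to 2304 TPM in that order. All 5 erythroid markers were lower with miR-222-3p than in ctrl at an unadjusted p below 0.05 (DESeq2, 2.29% of all genes). They were at 151 to 272 TPM in sum against 361 to 450.4. Plasmacytoid dendritic cells, known as a source of type I interferon, had marker sums of 86.0 to 138 TPM in ctrl, 81.2 to 128 with miR-142-5p, 87.3 to 105 with miR-183-5p and 71.7 to 130 with miR-222-3p. Of the 4 tested, 2 were higher with miR-142-5p than in ctrl at an unadjusted p below 0.05 (DESeq2, median 1.23). Of 6 dendritic cell markers, 2 were higher in that pair (median 0.53). With miR-142-5p 3 of these 6 were also higher than with miR-222-3p (median 0.87, beside 3.59% of all genes). In miR-183-5p compared with miR-142-5p, 1 plasmacytoid and 2 dendritic cell markers were lower. Of all cell markers, Krt1 alone was at 0 in every tumour. The part of these cells in the levels of the 46 genes was not tested. Without miR-142-5p tumour 3, which held the B cell markers, the median difference of miR-142-5p from ctrl was -0.20, against -0.21 with it.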

How the data were processed

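Polyadenylated RNA of 12 tumours (4 groups of 3, grouped by the sample labels) was prepared with a stranded mRNA kit. The authors quantified reads with Salmon, as the submitters' processing notes name it. The deposited expected counts (estimated reads per transcript, not whole) and the TPM values deposited by the authors (level per length, scaled per library) were summed per gene after matching 116710 of 118783 transcripts (98.3%) to GENCODE M21 on GRCm38. The Ensembl release given in the methods may not be the one behind the deposited tables. Summed counts were rounded, and the TPM-weighted effective length was an offset. A gene was kept if 3 libraries or more held 10 reads or more of it (15459 genes).

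Groups were compared with DESeq2 1.42.0 in R 4.3.3, with all 12 tumours fitted jointly by group alone (Wald test, and a likelihood-ratio test of any difference). Log2 fold changes are unshrunken and p-values were adjusted over all genes with a threshold of 0.05. The scripts were tested on simulated data. Normalised counts are counts divided by the size and length factors. edgeR 4.0.16, other filters and scalings, a replicate block and leaving out each tumour were alternatives. Promoter and microRNA sequences are from RefSeq, and shared stretches between transcripts were found with BLAST 2.17.0.

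The 46 genes, their roles and the other lists were chosen with earlier results of these data known. Named in each pair were genes that passed the test, the 3 highest and 3 lowest differences against ctrl among genes with a mean normalised count of at least 100, up to 5 genes with the lowest unadjusted p below 0.05, and preset representatives of each role. Genes whose groups did not overlap and those with a seed site were named after their values were seen. A tumour is the replicate, and depth was similar in all libraries, each of the 46 genes having at least 321 reads in each. The result of 1 gene is not reported here.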

Additional observations from a re-analysis of the deposited data

How the results depend on the processing

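In each of the 6 pairs and in the test of any difference, 0 of the 46 genes were called by DESeq2 and under every alternative run: edgeR, TMM factors, no count filter, at least 50 counts in every library, no length offset, only the groups compared (not for the test of any difference), near-identical copies summed, an adjusted p below 0.1, and each tumour left out. The medians over the 46 genes moved by less than the spread between tumours of a group (0.29, SD on the log2 scale) in all 84 repeats. That limit is wide and says little about stability. It was also met where leaving out ctrl tumour 2 changed the sign against ctrl. The median went from -0.21 to 0.05 for miR-142-5p and from -0.20 to 0.09 for miR-222-3p. Several medians are near 0. With each tumour left out, they ranged from -0.39 to 0.05 for miR-142-5p against ctrl, from -0.10 to 0.30 for miR-183-5p, from -0.36 to 0.09 for miR-222-3p, from 0.10 to 0.39 for miR-183-5p compared with miR-142-5p, from 0.07 to 0.40 for miR-183-5p compared with miR-222-3p and from -0.12 to 0.10 for miR-142-5p compared with miR-222-3p. Of single genes, Ifi27l2a changed sign for miR-142-5p without ctrl tumour 3 (-0.11) and without miR-142-5p tumour 1 (-0.05), and for miR-222-3p without ctrl tumour 3 (-0.029), its range there being -0.029 to 0.33 with each tumour left out. Mx1 for miR-222-3p was at 0.19 without ctrl tumour 2 and at -0.78 without ctrl tumour 1, the ends of its range. The cause was not tested.

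Tumours with the same number were not more alike than others. Their deviations had a mean correlation of -0.04 (18 pairs, -0.44 to 0.22), beside 0.02 for different numbers (36 pairs, -0.27 to 0.43). These values cannot show whether tumours were handled in matched sets. With the replicate block, 0 genes were called, and the medians were -0.18, 0.07 and -0.17 against ctrl for the groups in the order above, then 0.25, 0.26 and -0.03 between microRNA groups. With 3 tumours per group and this spread between tumours, small differences could have been missed, and no limit of detection was computed. Groups of 3 were too small for a search for outlying samples.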
